A study of Homo sapiens with 4 samples.

Results

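Matrix metalloproteases (MMPs) linked to melanoma and the tissue inhibitors that block them (TIMPs) were followed in M14 cells, an established human melanoma line. The genes were taken by name: MMP1, MMP2, MMP3, MMP9, MMP14, MMP15, MMP16, TIMP1, TIMP2 and TIMP3. In the array annotation these 10 genes, of 19775 named, had 25 probe sets of 54675, each naming 1 of them alone. Total RNA was measured on 4 Affymetrix arrays, 1 for each of 4 groups. These were the line stably transfected with FLAG-tagged ARHGAP8 in pIRES2-eGFP, in 3D and in 2D culture, and the line with the empty pIRES2-eGFP vector, in 3D and in 2D culture. The ARHGAP8 insert was the coding region of a variant without an exon. All cells were selected with G418, sorted for eGFP and cultured for 4 days in serum under G418. In 3D they were embedded in growth factor-reduced Matrigel, and in 2D they grew on plastic coated with bovine collagen and were harvested before confluence. The cultures thus differed in dimension and in matrix at once, and the parts of these in a difference between cultures cannot be told apart. There was 1 line per plasmid, so a difference between the lines cannot be told apart from a difference between any 2 transfected lines, and the labels do not say whether a line was 1 clone.

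MMPs are zinc-dependent proteases that cells make as inactive proenzymes and that, once activated, cut collagens, laminins and other parts of the matrix around them. TIMPs are small secreted proteins that bind the active site of an MMP and block it. In melanoma, MMPs are known for opening the basement membrane and dermal collagen to invading cells, and much of the control of the secreted collagenases and stromelysins lies in transcription through AP-1 and ETS factors. An array reads transcript signal only, so neither proenzyme activation nor inhibitor binding was measured.

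The deposited values were MAS5 signal intensities, scaled to the same trimmed mean on each array. Signals under 72.3, the median of all values without control probe sets, were set to that floor, so that a ratio with the floor on 1 side gives a bound. Each gene was represented by its probe set with the highest mean log2 signal. Of the 10 genes 9 were above the floor on all 4 arrays and entered the test, an additive limma model of plasmid and culture over 13239 genes with a threshold of 0.05 on the adjusted p-value. That model has 1 residual degree of freedom, so each standard error (SE) is a moderated one: it borrows 19.4 prior degrees of freedom and rests mostly on other genes of like signal. Single ratios set 1 array against 1 array and have no replicate error.

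Some facts of the whole series bear on these values. The 4 probe sets that name ARHGAP8 also name another gene and read 4.02 to 14.8, below the floor, so they do not check the labels. Melanocyte markers were above the floor on all arrays for 6 of 8 listed genes, while PMEL, a melanosome matrix protein gene, was below it on every array. The summed signal of that list was 8495 in the ARHGAP8 line in 3D and 5169 in 2D, and 8774 in the empty-vector line in 3D and 7918 in 2D. Of the fibroblast list 3 of 6 markers were above the floor on all arrays, as were 1 of 3 endothelial, 1 of 4 keratinocyte and 0 of 4 immune markers; DCT and CD68 had no probe set naming them alone. The summed signal of the fibroblast list was 575 to 595 in the ARHGAP8 line against 700 to 763 in the empty-vector line, and that of the keratinocyte list was 1173 to 1342 against 736 to 928, mostly from KRT10, at 1201 and 1067 in the ARHGAP8 line against 582 and 815 in the empty-vector line. COL3A1, LUM, PDGFRB, KRT5, KRT14, CDH5, VWF, PTPRC, CD3E and CD14 were below the floor on all arrays. The ARHGAP8 3D array stood apart in its control probe sets, with a median 18S ribosomal RNA signal of 626, against 27.7 to 49.4 on the other 3 arrays. Many other control probe sets were also highest there. AFFX-DapX-3_at read 318 against 55.3 to 70.7, and AFFX-CreX-3_at 5574 against 3293 to 4233. Not all were: AFFX-TrpnX-5_at read 48.4 there and 63.9 on the empty-vector 3D array. ACTB, read at both transcript ends, had a 3' over 5' ratio of 1.32 (ARHGAP8 line) and 1.23 (empty-vector line) in 3D, against 1.05 (ARHGAP8 line) and 1.10 (empty-vector line) in 2D. The same ratio of GAPDH ran from 0.87 to 0.92 over the 4 arrays. The part of these differences in the results below was not tested.

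**Figure D1:**
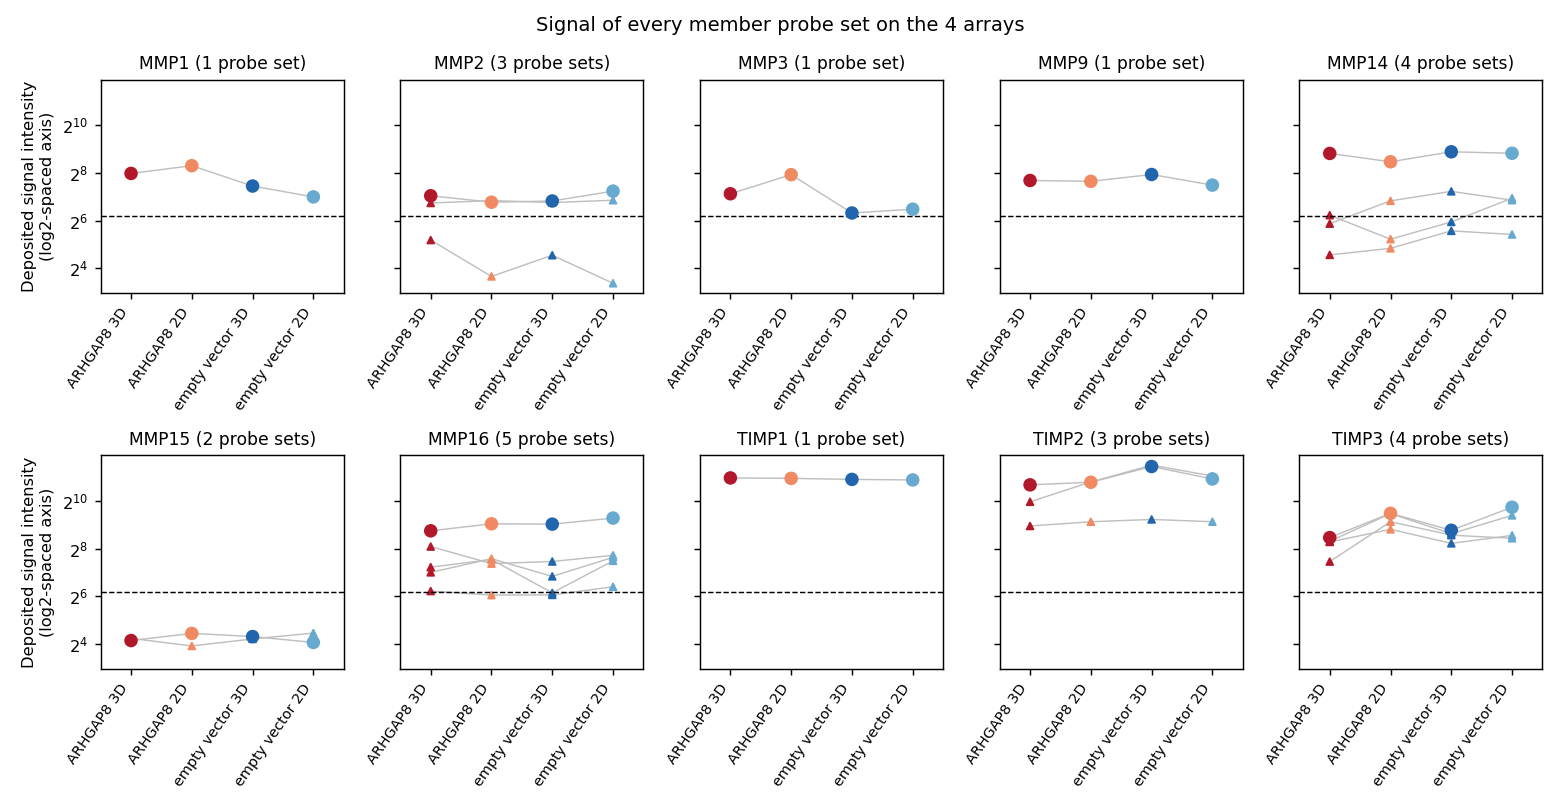
Deposited signal intensity on a log2-spaced axis for all 25 probe sets of the 10 genes on the 4 arrays; large circles are the probe set that represents the gene, small triangles its other probe sets, and the dashed line the floor of 72.3. MMP1 and MMP3 read higher on both ARHGAP8 arrays, and the representative probe set of TIMP3 lower on both 3D arrays. TIMP1 stayed between 1877 and 1991, and MMP15 lay below the floor.

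Between the lines, the interstitial collagenase gene MMP1 and the stromelysin gene MMP3, which lie in a cluster of protease genes on chromosome 11, had the plasmid terms farthest from 0 among the 9 tested genes, with higher signals in the ARHGAP8 line in both cultures. Neither passed the test. TIMP2 read lower in the ARHGAP8 line, by an amount that rested mostly on the 3D arrays, and it did not pass either. In all, 0 of 9 tested genes passed the plasmid term in limma after Benjamini-Hochberg adjustment, where 0.128% of all tested genes did. At an unadjusted p under 0.05 there were 3, MMP1, MMP3 and TIMP2, where 8.14% of all tested genes were. The median plasmid term of the 9 genes was -0.12 log2, against 0.00 over all genes tested.

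MMP1 encodes the collagenase that cleaves fibrillar collagen. Its signal was 251 in the ARHGAP8 line in 3D and 315 in 2D, against 174 in the empty-vector line in 3D and 127 in 2D. Both ARHGAP8 arrays lay above both empty-vector arrays. The log2 ratio between the lines was 0.53 in 3D and 1.31 in 2D, the second of these being 2.48-fold. The plasmid term was 0.92 ± 0.25 (moderated SE, 4 arrays) and its adjusted p 0.164 in limma. Without the ARHGAP8 3D array the value is the 2D ratio alone.

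MMP3 encodes a secreted stromelysin that cuts proteoglycans and laminin and can activate the collagenase proenzyme. Its signal was 139 in the ARHGAP8 line in 3D and 243 in 2D, against 79.7 in the empty-vector line in 3D and 89.0 in 2D, the last pair close to the floor. Here too the lines did not overlap. The log2 ratio between the lines was 0.81 in 3D and 1.45 in 2D, and the plasmid term was 1.13 ± 0.26 (moderated SE, 4 arrays; adjusted p 0.0984 in limma). When only genes above the floor on all 4 arrays were tested, MMP3 passed with an adjusted p of 0.0229. Both genes have 1 probe set each, so no other probe set checks them.

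The highest signal of MMP1 and of MMP3 was on the ARHGAP8 2D array. That array also had the lowest summed melanocyte marker signal. MLANA, MITF and TYR were each lowest there, and S100B was almost level there with the empty-vector 3D array. SOX10 was lowest on the ARHGAP8 3D array, at 1114 against 1582 on the ARHGAP8 2D array, and TYRP1 on the empty-vector 2D array, at 161 against 339 on the ARHGAP8 2D array. By size, 2 of 9 genes, MMP1 and MMP3, were at least 2-fold higher in the ARHGAP8 line in 2D, where 0.250% of genes with a ratio were. In 3D 0 of 9 were 2-fold apart, where 1.09% of genes were higher in the ARHGAP8 line by that much and 1.30% were lower.

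TIMP2 encodes an inhibitor that also takes part, bound to the membrane protease of MMP14, in activating the MMP2 proenzyme. Its representative probe set read 1628 in the ARHGAP8 line in 3D and 1756 in 2D, against 2774 in the empty-vector line in 3D and 1932 in 2D. The lines did not overlap, yet the 2D values lay close together and the 3D values did not. The log2 ratio between the lines was -0.77 in 3D and -0.14 in 2D, and the plasmid term was -0.45 ± 0.18 (moderated SE, 4 arrays; adjusted p 0.440 in limma). A second probe set, 224560_at, read 995 in the ARHGAP8 line in 3D and 1769 in 2D, against 2888 in the empty-vector line in 3D and 2104 in 2D. Its 3D ratio of -1.54 log2 was the lowest of all ratios between the lines among the 25 probe sets. The third, 203167_at, read 492 and 557 in the ARHGAP8 line, against 596 and 558 in the empty-vector line, each time 3D before 2D. All 3 probe sets were lower in the ARHGAP8 line in both cultures, but for 203167_at the 2D values nearly coincided. These 3D ratios use the array with raised ribosomal RNA signal and other raised control signals.

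TIMP1, a broadly acting inhibitor, had nearly the same signal everywhere, with 1991 in the ARHGAP8 line in 3D and 1965 in 2D, against 1908 in the empty-vector line in 3D and 1877 in 2D. Its 4 values spanned 0.08 log2, the narrowest range of the 9 tested genes, and its plasmid term was 0.06 ± 0.16 (moderated SE, 4 arrays). TIMP3, an inhibitor that stays bound to the matrix, had a plasmid term of -0.28 ± 0.17 (adjusted p 0.742 in limma), with lines that overlapped.

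MMP14 encodes a membrane-anchored collagenase that activates the MMP2 proenzyme at the cell surface. Its representative probe set read 450 in the ARHGAP8 line in 3D and 353 in 2D, against 471 in the empty-vector line in 3D and 452 in 2D. The ARHGAP8 3D value of 450 lay just below the lower empty-vector value of 452. The plasmid term was -0.21 ± 0.18 (adjusted p 0.877 in limma). Of its 3 other probe sets, 202828_s_at was below the floor on all arrays, 217279_x_at was above it on 2, and 202827_s_at read 58.4 in the ARHGAP8 line in 3D and 113 in 2D, against 149 and 116 in the empty-vector line.

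MMP16, another membrane-anchored protease, read 428 in the ARHGAP8 line in 3D and 525 in 2D, against 520 in the empty-vector line in 3D and 620 in 2D. Its plasmid term was -0.26 ± 0.17 (adjusted p 0.789 in limma) and the lines overlapped. Its 5 probe sets did not run one way. In 3D, 207013_s_at read 271 in the ARHGAP8 line against 176 in the empty-vector line, and 207012_at read 149 against 70.6, a value below the floor. With the mean of its probe sets the term became 0.08.

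The gelatinase genes MMP2 and MMP9, whose products cut denatured collagen and the basement membrane collagen, had overlapping signals in the lines. MMP2 read 131 in the ARHGAP8 line in 3D and 109 in 2D, against 113 in the empty-vector line in 3D and 150 in 2D. MMP9 read 205 and 200 in the ARHGAP8 line, against 244 and 179 in the empty-vector line, 3D before 2D. Their plasmid terms were -0.12 ± 0.26 and -0.05 ± 0.24 (moderated SE, 4 arrays), with adjusted p-values of 0.975 and 0.988 in limma. The second MMP2 probe set above the floor, 1566678_at, stayed between 107 and 115 on all arrays. MMP15, a membrane-anchored protease, was below the floor on all 4 arrays in both its probe sets, with signals from 15.1 to 21.9, so no ratio is given.

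Across these 9 genes, signals of the lines did not overlap with the ARHGAP8 line higher for 3 (MMP1, MMP3 and TIMP1) and lower for 2 (MMP14 and TIMP2). Of 11201 genes that exceeded the floor on every array, the shares were 12.6% and 14.2%. The term of TIMP1 was smaller than its SE, and that of MMP14 little larger.

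**Figure D2:**
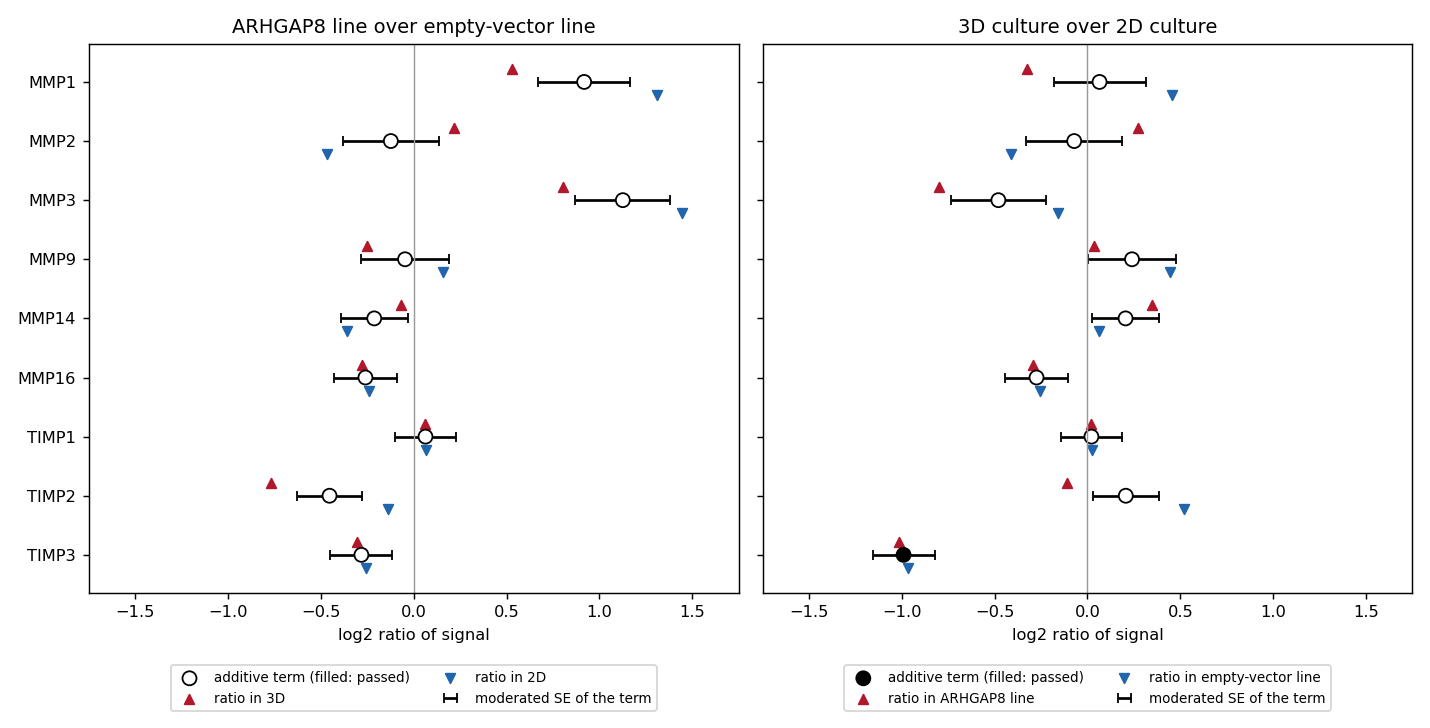
Log2 ratios of the 9 tested genes for the ARHGAP8 line over the empty-vector line (left) and for 3D over 2D culture (right). Circles are the additive terms with their moderated SE, filled where the adjusted p was under 0.05, and triangles the pair of single-array ratios behind each term; TIMP3, at -0.99 in the culture panel, is the only filled circle, while MMP1 and MMP3 lie at 0.92 and 1.13 in the plasmid panel.

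Between the cultures, the representative probe set of TIMP3 fell in 3D, in both lines and by nearly the same amount. Its other probe sets fell by amounts that differed more between the lines, and 201150_s_at was not lower in 3D in the empty-vector line. TIMP3 was 1 of 9 tested genes to pass the culture term, where 4.15% of all tested genes fell and 2.83% rose. None of the MMP genes passed, and TIMP1 and TIMP2 did not. The median culture term of the 9 genes was 0.02 log2, against 0.03 over all genes tested. A lower bulk signal can come from fewer cells of a kind or from less RNA per cell, which cannot be told apart here.

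TIMP3 read 352 in 3D and 711 in 2D in the ARHGAP8 line, and 435 in 3D and 849 in 2D in the empty-vector line. Both 3D arrays lay below both 2D arrays. The 3D over 2D log2 ratio was -1.02 in the ARHGAP8 line and -0.96 in the empty-vector line, that is 2.02-fold and 1.95-fold lower in 3D. The culture term was -0.99 ± 0.17 (moderated SE, 4 arrays), and its adjusted p was 0.000861 (limma, Benjamini-Hochberg). In the empty-vector line alone, without the ARHGAP8 3D array, the ratio was thus -0.96. The ratio in the ARHGAP8 line was the only one of the representative probe sets to be at least 2-fold lower in 3D, where 1.91% of genes with a ratio were in that line and 1.78% were at least 2-fold higher. In the empty-vector line 0 of 9 were 2-fold apart, where 1.72% of genes were higher and 1.27% lower by that much.

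The other TIMP3 probe sets went the same way in 2 of 3 cases and by different amounts. Probe set 201147_s_at read 316 in 3D and 706 in 2D in the ARHGAP8 line, and 394 in 3D and 670 in 2D in the empty-vector line. Probe set 201148_s_at read 310 and 447 in the ARHGAP8 line and 297 and 375 in the empty-vector line, 3D before 2D. Probe set 201150_s_at read 175 in 3D and 558 in 2D in the ARHGAP8 line, but 378 in 3D and 345 in 2D in the empty-vector line, where 3D was not lower. In the fit over all probe sets 2 of these 4 passed, 201149_s_at and 201147_s_at, with adjusted p-values of 0.00474 and 0.00890 in limma, where 1.87% of all probe sets tested passed as lower. With the mean of the 4 probe sets in place of the representative one, the term was -0.79 and the call was lost (adjusted p 0.134 in limma).

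The promoters of TIMP3, the member that passed the culture term, and of TIMP1, the tested one with the narrowest range, are printed for comparison. They come from RefSeq (GRCh38.p14, 250 bases before to 50 after the gene start, plus strand). RefSeq's promoter table matched 4 of the 10 genes (MMP14, MMP15, TIMP1 and TIMP3). TIMP3 lies at chr22:32801455-32801754 and TIMP1 at chrX:47582186-47582485. Capitals mark matches to the GC box GGGCGG on either strand, a motif that 45.0% of the 35116 promoters of this length hold.
TIMP3: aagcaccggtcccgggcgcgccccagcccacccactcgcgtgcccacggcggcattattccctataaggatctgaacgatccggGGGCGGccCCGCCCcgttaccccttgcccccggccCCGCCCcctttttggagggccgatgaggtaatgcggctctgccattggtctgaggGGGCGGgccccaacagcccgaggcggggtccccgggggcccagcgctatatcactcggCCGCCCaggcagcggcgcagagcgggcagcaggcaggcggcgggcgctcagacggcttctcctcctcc
TIMP1: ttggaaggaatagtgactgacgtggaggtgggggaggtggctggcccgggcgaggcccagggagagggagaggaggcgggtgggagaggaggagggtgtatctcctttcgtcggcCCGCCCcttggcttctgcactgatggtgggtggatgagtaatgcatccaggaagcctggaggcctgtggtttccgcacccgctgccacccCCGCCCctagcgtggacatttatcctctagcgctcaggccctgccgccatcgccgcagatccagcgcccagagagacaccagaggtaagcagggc
The TIMP3 promoter held 5 matches and a G+C share of 72.7%, and the TIMP1 promoter 2 matches and 65.0%. Neither window held an exact match to the AP-1 motif TGANTCA, found in 7.71% of promoters, or to the TATA motif TATAAA, found in 11.5%. Both strands were searched, and matches of different motifs did not overlap. Sites that depart from these letters were not sought, so the search does not tell whether a window holds a variant AP-1 site.

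For TIMP2 the single 3D over 2D ratios had opposite signs in the lines. In the ARHGAP8 line its 3D over 2D log2 ratio was -0.11, -0.18 and -0.83 in probe sets 231579_s_at, 203167_at and 224560_at. In the empty-vector line these were 0.52, 0.10 and 0.46. All 3 thus lay below 0 in the ARHGAP8 line and above 0 in the empty-vector line, a difference that was not tested. These probe sets read 1 gene on the same 4 arrays, so they are not replicates. For the representative probe set the ratio in the ARHGAP8 line minus that in the empty-vector line was -0.63 log2. The culture term of the representative probe set was 0.21 ± 0.18 (adjusted p 0.554 in limma), and -0.01 with the mean of its probe sets.

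**Figure D3:**
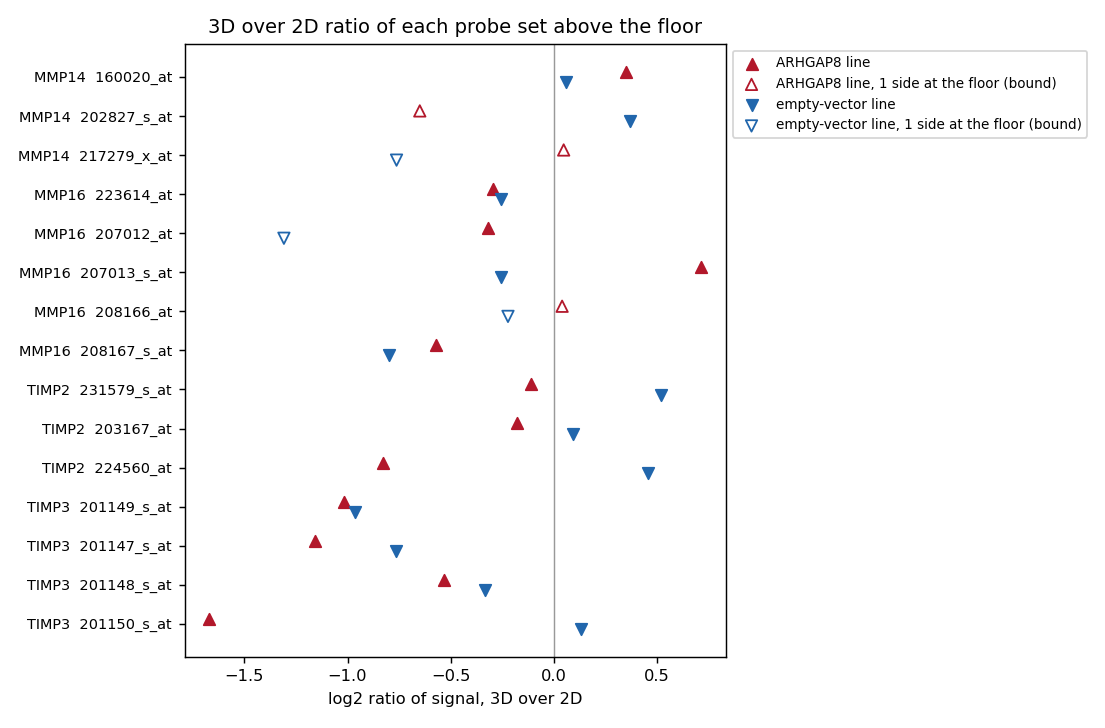
3D over 2D log2 ratio of each probe set of MMP14, MMP16, TIMP2 and TIMP3 that was above the floor on at least 1 array, in the ARHGAP8 line (upward triangles) and the empty-vector line (downward triangles); open symbols are bounds with 1 side at the floor. The TIMP3 ratios lie below 0 except 0.13 for 201150_s_at in the empty-vector line, and the TIMP2 ratios fall on opposite sides of 0 in the lines.

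Among the proteases, the culture term was -0.48 ± 0.26 for MMP3, with log2 ratios of -0.80 in the ARHGAP8 line and -0.16 in the empty-vector line (adjusted p 0.297 in limma). MMP1 had ratios of -0.33 in the ARHGAP8 line and 0.46 in the empty-vector line, which leave a term of 0.07 ± 0.25 (moderated SE, 4 arrays). The ratio between the lines was thus larger in 2D than in 3D for both genes, with a 3D ratio minus 2D ratio of -0.78 log2 for MMP1 and -0.64 for MMP3. Neither difference was tested, since the design leaves no degree of freedom for it. Differences of at least 1 log2 either way were seen in 3.29% of genes above the floor on all arrays and in 0 of these 9.

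MMP16 had a culture term of -0.27 ± 0.17 (adjusted p 0.380 in limma), with ratios of -0.29 in the ARHGAP8 line and -0.25 in the empty-vector line. Of its other probe sets 208167_s_at was lower in 3D in both lines, at -0.57 and -0.80, while 207013_s_at read 0.71 in the ARHGAP8 line and -0.26 in the empty-vector line. MMP14 had a term of 0.21 ± 0.18 that became -0.07 with the mean of its probe sets. MMP9 and MMP2 had terms of 0.24 ± 0.24 and -0.07 ± 0.26. For MMP2 the ratios were 0.27 in the ARHGAP8 line and -0.41 in the empty-vector line. By overlap, 3D lay below 2D for 2 of 9 genes (TIMP3 and MMP16) and above it for 1 (MMP9), where 24.4% and 26.6% of genes above the floor on all arrays did so.

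Other genes of pericellular proteolysis were taken from 8 lists with 119 genes. Of these 80 were tested, and in the plasmid term 0 of them passed in limma, with 7 under an unadjusted p of 0.05, close to the share of 8.14% over all genes. In the culture term 2 of 12 tested genes of invadopodia and MMP14 delivery rose, as did 2 of 11 AP-1 and ETS factors, of which 1 more fell, where 2.83% of all tested genes rose and 4.15% fell; no tested gene of the other 6 lists passed. CTTN, the cortactin gene of the actin core of invadopodia, rose in 3D by 0.58 ± 0.16 log2 (adjusted p 0.0320 in limma), with signals of 982 in 3D and 640 in 2D in the ARHGAP8 line and 697 and 476 in the empty-vector line. Its 3 other probe sets above the floor lay lower, at 0.11 to 0.49. MYO10, a motor of filopodium tips, rose by 0.67 ± 0.16 (adjusted p 0.0119), and its 4 other probe sets lay at 0.15 to 0.52.

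Of the factors, JUND, an AP-1 subunit, rose by 0.81 ± 0.17 (adjusted p 0.00637 in limma), with its 3 other probe sets at -0.04 to 0.40, and ETS1 rose by 0.56 ± 0.16 (adjusted p 0.0364), although the other 2 probe sets of ETS1 read -0.19 and -0.32. FOSL1, the FRA1 subunit of AP-1, fell by 0.91 ± 0.20 (adjusted p 0.00786 in limma). Its signal was 494 in 3D and 1366 in 2D in the ARHGAP8 line, and 676 in 3D and 861 in 2D in the empty-vector line. FOSL1 was thus highest on the ARHGAP8 2D array and lowest on the ARHGAP8 3D array. Its log2 ratio between the lines was 0.67 in 2D and -0.45 in 3D, unlike MMP1 and MMP3, which were higher in the ARHGAP8 line in both cultures. All 5 calls were lost with the mean of probe sets, with adjusted p-values of 0.172 to 0.966, and without the intensity trend, with 0.0710 to 0.151. Those of CTTN and ETS1 were also lost in the fit over all probe sets (0.0691 and 0.0749) and with the floor at the lower quartile (0.0563 and 0.0722), and that of FOSL1 after quantile normalization (0.0593).

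**Figure D4:**
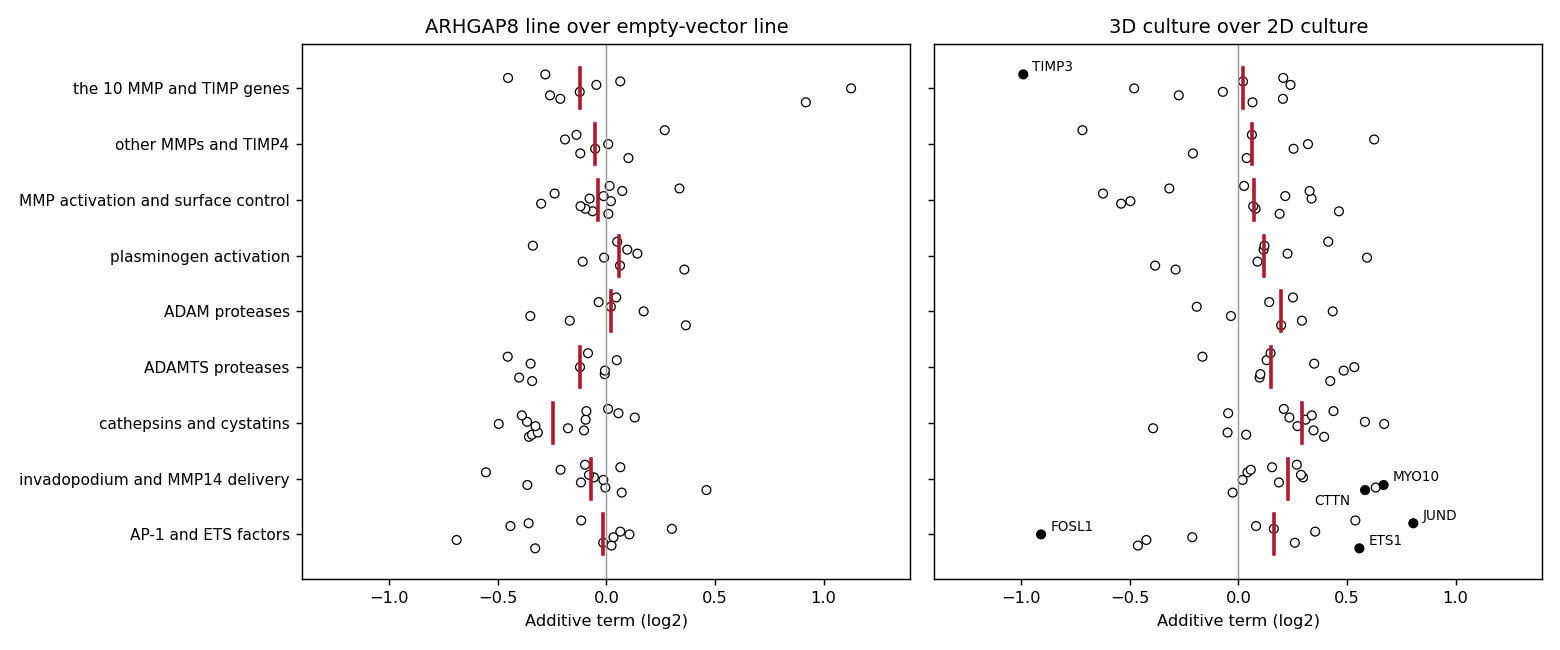
Additive log2 terms of every tested gene in the 10 MMP and TIMP genes and the 8 other lists, for the ARHGAP8 line over the empty-vector line (left) and 3D over 2D (right). Filled points passed and are named, and red bars are list medians; in the plasmid panel no point is filled.

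Among the other MMPs and TIMP4, 7 of 17 genes were tested, and 7 were below the floor on all arrays. The nearest to the threshold was MMP8, the neutrophil collagenase gene, at -0.72 ± 0.24 in the culture term (adjusted p 0.0795 in limma), with 1 array below the floor and signals of 97.3 in 3D and 143 in 2D in the ARHGAP8 line and 42.3 and 133 in the empty-vector line. MMP28 stood at 0.63, a bound since both 2D signals were below the floor, and ran from 0.13 to 1.19 over the alternatives. MMP27 stood at 0.32, with its empty-vector 2D signal below the floor. Among activators, FURIN, a convertase that cleaves MMP14's proenzyme, had a culture term of -0.54 and PCSK7, a related convertase, -0.62. HPSE, the heparanase gene, had -0.50, a bound since both 3D signals were below the floor. Of the plasminogen genes PLGRKT, a plasminogen receptor, had 0.59, PLAT, the tissue activator, -0.38, and ST14, which encodes matriptase, 0.41 with both 2D arrays at the floor. With the floor at the lower quartile ST14 had a term of 1.59 and passed (adjusted p 0.0414 in limma).

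List medians of the culture term ran from 0.06 for the other MMPs and TIMP4 to 0.29 for cathepsins and cystatins, against 0.03 over all genes. Among cathepsins CTSF had 0.67, CTSH 0.58 and CTSV 0.44. In the ADAM list ADAM17, the sheddase of many surface ligands, had 0.43, ADAM9 0.25 and ADAM10 0.20, and in the ADAMTS list ADAMTS18 had 0.53, ADAMTS17 0.48 and ADAMTS12 0.42. None of these passed.

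In the plasmid term, list medians ran from -0.25 for cathepsins and cystatins to 0.06 for plasminogen activation. The terms farthest from 0 were -0.69 ± 0.18 for ETV4, an ETS factor (adjusted p 0.162 in limma), -0.55 for SH3PXD2B, an invadopodium scaffold, -0.50 for CTSF (0.06 in 3D, -1.05 in 2D) and 0.46 for CTTN. ANXA2, part of a plasminogen-binding complex, had 0.36 and ADAM10 0.37. FURIN stood at -0.30, SPOCK1 at 0.34, CST3, which encodes cystatin C, at -0.36, CTSO at -0.39 and CTSH at -0.37. MMP11 read 79.6 in 3D and 75.5 in 2D in the ARHGAP8 line, against 16.9 and 26.7 in the empty-vector line. Its term of 0.10 was thus a bound, with the empty-vector line below the floor. It was 1.69 with the floor at the lower quartile, 1.32 with no floor and 0.03 with the mean of probe sets. MMP11 passed in 0 of 8 alternatives.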

How the data were processed

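Total RNA of 4 samples was measured on 1 array each. The deposited values were linear signal intensities, 1 for each probe set; MAS5 is the tool named in the submitters' processing notes, with no version given in the sources used here, and detection calls were not used here. RNA was amplified in a pair of in vitro transcription rounds per the labels' protocols. The deposited intensity values had a 2% trimmed mean of 150.0 on each array. They were rescaled to a common trimmed mean, floored at 72.3 and taken to log2. Names came from the platform annotation, updated through a RefSeq table for 41037 of 41091 probe sets with 1 symbol; 1801 probe sets with several symbols and 11721 with none named no gene, and 62 control probe sets were left out. Genes above the floor on at least 2 arrays, 13239 of 19775, were tested in limma 3.58.1 under R 4.3.3 with lmFit, eBayes with trend and Benjamini-Hochberg adjustment, two-sided; the test was tested on simulated data. The number of arrays limits the precision, and nothing says that arrays stand for separate cultures. With 1 array per group there is no spread between replicates to measure. The p-values rest on each gene's departure from the additive model and mostly on the variance of other genes. The members, lists, tests and alternatives were chosen with earlier results of these data known. Genes named were all 10 members and, per list and term, those past the threshold and some of up to 3 others of greatest term with ratios of the same sign. CTSF was also named in the plasmid term, where its ratios had opposite signs. Alternatives were quantile and cyclic loess normalization, no floor (log2 of signal plus 16), a lower-quartile floor of 21.7, a stricter filter, the mean of probe sets, all probe sets, and eBayes without trend or robust.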

Additional observations from a re-analysis of the deposited data

Results flagged for a closer look

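With 1 array per group no sample could be tested as standing apart from its group. Opposite signs with a gap of at least 1 log2 were found in 3 of 21 member probe sets with these ratios, against 4.93% of all such probe sets, and none of these differences was tested. TIMP3 probe set 201150_s_at had a ratio between the lines of -1.11 in 3D and 0.69 in 2D, a difference of -1.80. Seen by culture, the same -1.80 separates its 3D over 2D ratio of -1.67 in the ARHGAP8 line from 0.13 in the empty-vector line. TIMP2 probe set 224560_at had a 3D over 2D ratio of -0.83 in the ARHGAP8 line and 0.46 in the empty-vector line, a difference of -1.29. MMP14 probe set 202827_s_at had -0.65, a bound, in the ARHGAP8 line and 0.37 in the empty-vector line, a difference of -1.02. All 3 use the ARHGAP8 3D array, whose median 18S ribosomal RNA signal was 626 against at most 49.4 elsewhere; the part of that array in them was not tested. The probe sets that represent these genes differed by less, with -0.05 for TIMP3, -0.63 for TIMP2 and 0.29 for MMP14.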

How the results depend on the processing

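Over 9 alternatives TIMP3 kept its culture call in 8, with terms from -0.99 to -0.79 and adjusted p-values in limma from 0.000156 to 0.134; with the mean of probe sets 0 of the 9 members passed the culture term, 2 being under an unadjusted p of 0.05. In the plasmid term 1 member, MMP3, passed when only genes above the floor on all 4 arrays were tested, and adjusted p-values ran from 0.0229 to 0.732 for MMP3 and from 0.0540 to 0.732 for MMP1. Members at least 2-fold apart numbered 2 or 3 of the single ratios under every setting tried. The background moved more. Plasmid calls over all genes numbered 17, 0 after quantile or cyclic loess normalization, over all probe sets, with the lower-quartile floor or with the mean of probe sets (997, 1035, 2024, 1245 and 891 under an unadjusted p of 0.05 in limma), 1 without trend, 10 with robust eBayes and 61 with the stricter filter. Culture calls numbered 925, 555 after quantile and 604 after cyclic loess normalization, 425 without trend and 36 with the mean of probe sets. With the mean of probe sets the sign turned for MMP14 (-0.07) and TIMP2 (-0.01) in the culture term and for MMP16 (0.08), JUND (0.05) and S100A10 (-0.11) in the plasmid term, and after quantile normalization for SERPINE2 (-0.02) in the plasmid term; none of these terms had passed. The other 157 of 162 comparisons of members with an alternative kept sign and side of the threshold. Outside the members, the SERPINE2 plasmid term moved from 0.10 to 0.87 with the mean of probe sets and did not pass. Without the ARHGAP8 3D array the model has no residual degree of freedom and gives ratios only. With 1 array per group there were no replicates to pair, and the labels give no replicate numbers. The additive model itself compares the lines within each culture and the cultures within each line. Signals of MMP3 in the empty-vector line lay just above the floor, which limits its ratios.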

Other observations

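Of the 9 measured genes 3 had a range of at least 1 log2 over the 4 arrays, and for each the genes with the most similar pattern were sought among 949 others with such a range, by the root mean square difference of centred log2 signals over 4 arrays. Nearest to MMP1 were KCNMA1, a calcium-activated potassium channel gene, at 0.11, EMP1, an epithelial membrane protein gene, at 0.18, and HLA-DRB4 at 0.25, whose probes cannot be told from near-identical paralogs. Nearest to MMP3 were GNG11, a G protein subunit gene, at 0.19, EMP1 at 0.22 and MIS12, a kinetochore gene, at 0.23. EMP1 thus stood on both lists, with signals of 560 in the ARHGAP8 line in 3D and 691 in 2D, against 333 in the empty-vector line in 3D and 345 in 2D. Nearest to TIMP3 were ZNF598, a sensor of stalled ribosomes, at 0.02, C8orf82 at 0.06 and SF3B4, a splicing factor gene, at 0.07. With 4 arrays such likeness is a description.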
